A study of Macaca fascicularis with 8 samples.

Results

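A set of 10 transcription factor genes that pattern the front-to-back axis of the embryonic brain was followed in embryonic stem cells (ESCs) of the cynomolgus monkey, Macaca fascicularis: OTX1, OTX2, HESX1, SIX3, LHX2, LHX5, EN2, GBX2, FOXB1 and IRX3. These 10 genes, of 33121 in the deposited table, were picked with their values in the 2 cell states already known, so their differences between the states are given as a description, without a test. HESX1 and LHX2 were found by the gene name in the table, and the other 8 by the best protein match of the row, at 85% identity or more. SIX3 lay just inside that limit at 85.55%, the next lowest was HESX1 at 96.55%, and 0 rows naming one of the 10 fell below it. IRX3 fitted more than 1 row, and the row with the higher mean was taken. By the names of these matches, 9 of the 10 encode homeobox proteins and FOXB1 a forkhead protein.

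The vertebrate neural plate is divided along its length by transcription factors that exclude each other at shared borders. OTX2 marks the future forebrain and midbrain and GBX2 the anterior hindbrain, and where their domains meet the isthmus forms, a signalling centre that releases FGF8. Antagonists of WNT secreted by the head organizer protect the anterior end, while WNT, FGF and retinoic acid turn neural tissue posterior. Several of these factors also have a life before the nervous system exists: OTX2 and HESX1 are known from the epiblast, and GBX2 from mouse ESCs.

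Polyadenylated RNA was sequenced in 4 primed and 4 dome-shaped libraries of unmodified ESCs, with no transgene or knockout named in the labels. Primed ESCs were kept in CESM, a commercial human stem cell medium (PSGro) mixed into conventional monkey ESC medium. They formed flat colonies and, per the labels, tolerated passage as single cells weakly. Dome-shaped ESCs were kept in NHSMV, a knockout DMEM medium with AlbuMAXI, N2, glutamine, nonessential amino acids and β-mercaptoethanol. NHSMV also held insulin at 12.5 µg/ml, human LIF at 10 ng/ml, bFGF at 8 ng/ml, TGF-β1 at 1 ng/ml and vitamin C at 50 µg/ml. Its kinase inhibitors were the MEK inhibitor PD0325901 at 1 µM, the GSK3 inhibitor CHIR99021 at 3 µM, the p38 inhibitors SB202190 at 5 µM and SB203580 at 10 µM, and the JNK inhibitor SP600125 at 10 µM. These cells formed domed colonies and tolerated single-cell passage strongly. Medium, colony shape and group coincide and cannot be told apart. The titles of primed replicate 4 and dome-shaped replicate 4 begin with the same code, CES3_12, and those of dome-shaped replicates 1 and 2 both begin with CES1. Primed replicates 3 and 4 share the number 3 after CES in their titles. The labels do not say that libraries came from separate cultures, so the spread between libraries may be partly technical.

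Values are RPKM, read counts divided by a length per row and the depth of the library. Levels of different genes can be set side by side only as far as each row covers its gene. For IRX3 the 2 fitting rows summed to 24.5 RPKM in primed replicate 4, against 13.8 RPKM in the row used. The ratios, shares and orders of genes below rest on this. The values imply 16360000 to 18080000 reads in a primed and 14400000 to 17680000 in a dome-shaped library, and 15141 to 15830 genes reached 1 RPKM. Dome-shaped replicate 4 stood apart from the other 3 of its group. The RPKM of the hindbrain and spinal cord factors described below summed to 39.8 in it, against 208 to 295 in the other dome-shaped libraries. The summed RPKM of 9 pluripotency genes was 2968 in it, against 1966 to 2014 in the others and 3004 to 3648 in primed libraries. Some of the values below are therefore also given without it.

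The 10 genes fell into 2 directions, with 2 of them not separated by state. OTX1, OTX2, HESX1, SIX3, LHX2 and LHX5 were lower in all dome-shaped libraries than in any primed library, while GBX2 and FOXB1 were higher in all. The values of the groups thus did not overlap for 6 genes that were lower and 2 that were higher, and they overlapped for EN2 and IRX3. Over the 25576 genes above 0 in any library, 8.61% were lower without overlap and 8.23% higher, 16.8% in either direction; since the genes were chosen on this contrast, nothing is read from the comparison with these shares. A filter that asked for 1 RPKM or more in 4 or more of the 8 libraries was passed by 5 of the 10 (OTX2, HESX1, GBX2, FOXB1 and IRX3). OTX1, SIX3, LHX2, LHX5 and EN2 lay below it.

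**Figure D1:**
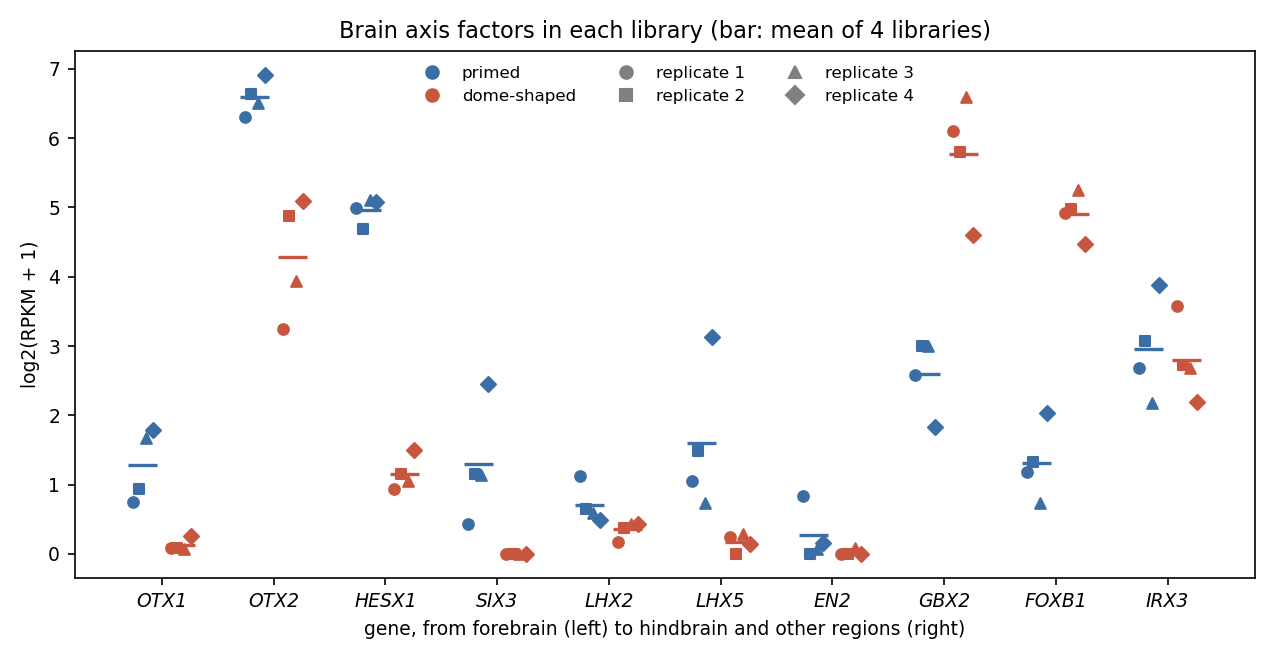
Level of each gene in each library as log2(RPKM + 1), with a bar at the mean of the 4 libraries of a group and a marker shape per replicate. Blue points of primed ESCs lie above all red points of dome-shaped ESCs from OTX1 to LHX5, the order turns around at GBX2 and FOXB1, and EN2 and IRX3 overlap.

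OTX2 was the most abundant of the 10 genes in primed ESCs. It encodes the homeodomain factor needed for forebrain and midbrain, and it is also expressed in the primed epiblast. Its levels were 78.4, 98.5, 89.8 and 119.7 RPKM in primed replicates 1 to 4. In dome-shaped replicates 1 to 4 they were 8.46, 28.4, 14.3 and 33.3 RPKM. The lowest primed library thus stood above the highest dome-shaped one, and the dome-shaped libraries spread more widely in proportion to their mean. Primed ESCs averaged 96.6 ± 17.4 and dome-shaped ESCs 21.1 ± 11.6 RPKM (SD, n = 4 each), 4.58-fold lower in the latter. In RNA from whole cultures, fewer cells with a transcript and less of it per cell cannot be told apart.

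HESX1, a homeobox repressor of the anterior neural plate and pituitary, had the largest log2 difference of the set. Primed replicates 1 to 4 held 30.7, 24.8, 33.6 and 32.8 RPKM. Dome-shaped replicates 1 to 4 held 0.909, 1.22, 1.07 and 1.82 RPKM. All 4 dome-shaped libraries were close to 1 RPKM and far below the primed range. The means were 30.5 ± 3.96 and 1.26 ± 0.399 RPKM (SD, n = 4 each), 24.3-fold lower in dome-shaped ESCs. On the scale of log2(RPKM + 1), used for all differences below, dome-shaped minus primed was -3.81 (SE 0.16) for HESX1 and -2.31 (SE 0.45) for OTX2. Without dome-shaped replicate 4 the differences were -3.92 for HESX1 and -2.575 for OTX2.

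OTX1, the paralogue of OTX2 that acts in cortex and sense organs, was low in both states. It stood at 0.680, 0.918, 2.18 and 2.47 RPKM in primed replicates 1 to 4. The dome-shaped libraries held 0.0585, 0.0652, 0.0531 and 0.195 RPKM. Each primed library had 12 to 44 reads of it and each dome-shaped library 1 to 3, as recovered from RPKM and the length of its row. The direction is thus clear in every library, but its size is not well set. The log2 difference was -1.16 (SE 0.26).

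SIX3, a homeobox factor of the most anterior forebrain and the eye that represses WNT genes, was listed at 0 in all 4 dome-shaped libraries. Its primed levels were 0.347, 1.23, 1.19 and 4.46 RPKM, from 4, 14, 15 and 52 reads. Primed replicate 4 alone carried more SIX3 reads than the other primed libraries together. Dome-shaped minus primed was -1.29 (SE 0.42), and -0.91 without primed replicate 4.

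LHX5 and LHX2 are LIM-homeobox genes, LHX5 of the diencephalon and other forebrain regions and LHX2 of the eye field and cortex. LHX5 stood at 1.07, 1.79, 0.664 and 7.76 RPKM in primed replicates 1 to 4. Its dome-shaped levels were 0.179, 0, 0.217 and 0.0999 RPKM. As with SIX3, primed replicate 4 was far above its group: the log2 difference of LHX5 was -1.44 (SE 0.54), and -0.92 without that library. LHX2 showed the smallest log2 difference of the 6 lower genes. Its primed levels were 1.19, 0.562, 0.508 and 0.399 RPKM, and its dome-shaped levels were 0.13, 0.29, 0.354 and 0.348 RPKM. The lowest primed library stood only just above the highest dome-shaped one, and the log2 difference was -0.36 (SE 0.16), and -0.22 without primed replicate 1.

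EN2, the engrailed factor of the midbrain-hindbrain border and cerebellum, was close to absent in both states. Primed replicate 1 held 0.781 RPKM from 13 reads, and the other primed libraries 0, 0.0550 and 0.119 RPKM. Of the dome-shaped libraries 3 were listed at 0 and replicate 3 had 1 read (0.0563 RPKM). The log2 difference was -0.25 (SE 0.19), and -0.06 without primed replicate 1.

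GBX2, the homeobox factor that sets the anterior edge of the hindbrain against OTX2, was the most abundant of the 10 in dome-shaped ESCs. Its primed levels were 4.99, 7.03, 6.97 and 2.54 RPKM. Dome-shaped replicates 1 to 3 held 67.9, 54.8 and 95.8 RPKM, and replicate 4 held 23.3 RPKM. Dome-shaped replicate 4 was the lowest of its group but still above every primed library. Primed ESCs averaged 5.38 ± 2.12 and dome-shaped ESCs 60.5 ± 30.1 RPKM (SD, n = 4 each), 11.2-fold higher in the latter. The log2 difference was 3.18 (SE 0.51), and 3.57 without dome-shaped replicate 4.

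FOXB1, a forkhead factor of the early neural tube and of the mammillary region of the hypothalamus, was, among dome-shaped libraries, the more even of the 2 genes that were higher. It stood at 1.26, 1.52, 0.658 and 3.08 RPKM in primed replicates 1 to 4. Its dome-shaped levels were 29.3, 30.6, 37.2 and 21.1 RPKM. Dome-shaped replicate 4 was again lowest, here by less than for GBX2. The mean went from 1.63 ± 1.03 to 29.6 ± 6.60 RPKM (SD, n = 4 each), 18.2-fold higher. The log2 difference was 3.59 (SE 0.32), and 3.74 without dome-shaped replicate 4.

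IRX3, an Iroquois homeobox factor of the caudal forebrain and regions behind it, showed no separation of the states. Primed levels were 5.40, 7.37, 3.52 and 13.8 RPKM, and dome-shaped levels were 10.9, 5.64, 5.44 and 3.57 RPKM. The log2 difference was -0.16 (SE 0.46) and became 0.16 without primed replicate 4 and 0.05 without dome-shaped replicate 4, so its sign rested on single libraries.

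**Figure D2:**
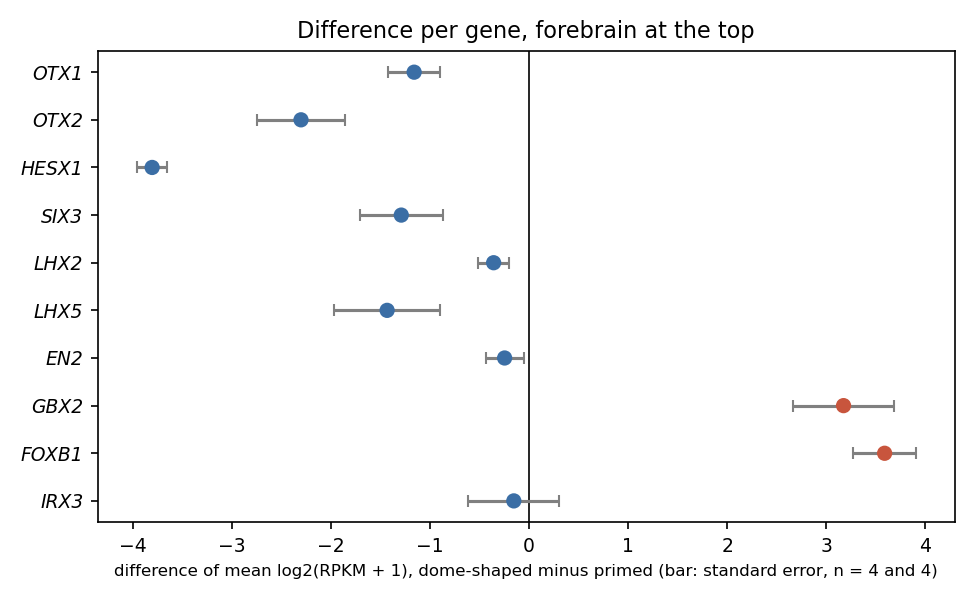
Difference of mean log2(RPKM + 1), dome-shaped minus primed, for the 10 genes. They run from forebrain (top) to hindbrain and other regions, with bars for the standard error over 4 and 4 libraries. HESX1 lies farthest to the left at -3.81 and FOXB1 farthest to the right at 3.59; EN2 and IRX3 lie near 0.

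The set as a whole was described by its counts. The log2 difference was below 0 for 8 genes and above 0 for 2, with a median of -0.76. The 15597 genes that passed the filter had a median of 0.03, but 5 members of the set lay below that filter. By limma at an adjusted p of 0.05, 7.96% of those filtered genes were called lower and 6.38% higher, 14.3% in either direction. As the choice of the set used this contrast, no p-value or call is given for its members. For the same reason their median is not read against that of the filtered genes, nor their counts by direction against these shares.

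The ratio of OTX2 to GBX2, the pair that meets at the midbrain-hindbrain border, turned over between the states. OTX2 RPKM was 15.7, 14.0, 12.9 and 47.1 times that of GBX2 in primed replicates 1 to 4. In dome-shaped replicates 1 to 3 GBX2 was the higher of the pair, by 8.03, 1.93 and 6.71 times. In dome-shaped replicate 4 OTX2 remained 1.42 times GBX2. The log2 ratio, with 1 RPKM added to each gene, averaged 3.99 ± 0.74 in primed and -1.49 ± 1.58 in dome-shaped ESCs (SD, n = 4 each). The difference of -5.48 (SE 0.87) became -6.14 without dome-shaped replicate 4. The ratios of the groups did not overlap. Within each group, the library titled CES3_12 had the highest OTX2 and the lowest GBX2.

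**Figure D3:**
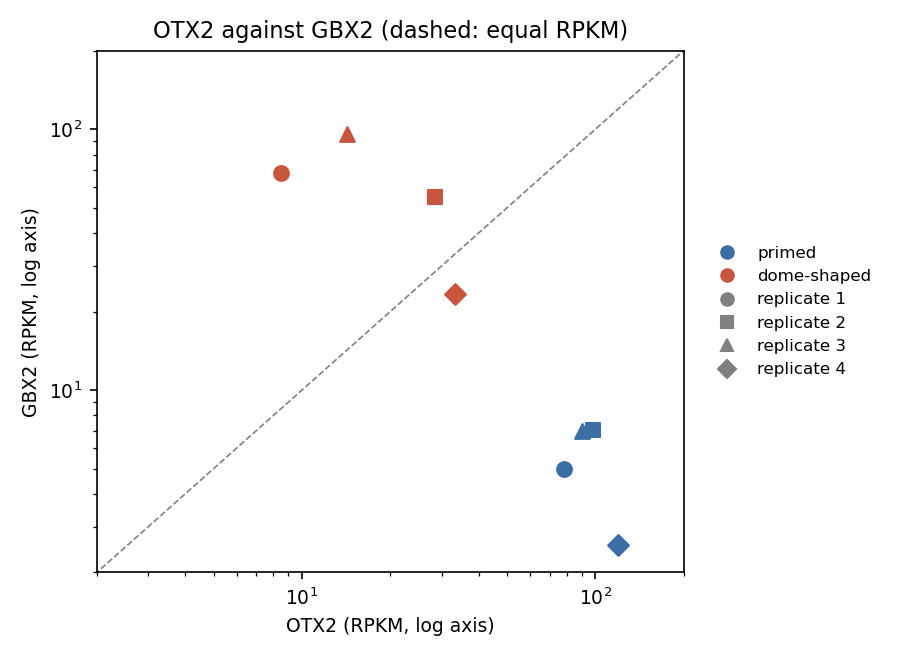
OTX2 (horizontal) against GBX2 (vertical) in RPKM on log axes, 1 point per library, with a dashed line where both are equal. Primed libraries lie at lower right, dome-shaped replicates 1 to 3 above the line, and dome-shaped replicate 4 just below it.

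The total of the 10 genes moved less than its make-up. Their RPKM summed to 125 to 187 in primed and 83.8 to 154 in dome-shaped libraries, ranges that overlap. OTX2 held 62.8% to 68.5% of that sum in primed and 7.17% to 39.7% in dome-shaped libraries. GBX2 held 1.36% to 5.01% in primed and 27.9% to 62.0% in dome-shaped libraries. FOXB1 held 24.1% to 25.3% of the sum in all 4 dome-shaped libraries, replicate 4 included.

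By mean RPKM the order in primed ESCs was OTX2, HESX1, IRX3, GBX2, LHX5, SIX3, FOXB1, OTX1, LHX2 and EN2. OTX2 was above HESX1, and HESX1 above IRX3, in 4 of 4 primed libraries. From IRX3 down to LHX2 each gene was above the next in only 2 or 3 of the 4 libraries, so these neighbours were not separated beyond their spread. In dome-shaped ESCs the order was GBX2, FOXB1, OTX2, IRX3, HESX1, LHX2, LHX5, OTX1, EN2 and SIX3. GBX2 was above FOXB1 in 4 of 4 libraries, and FOXB1 above OTX2 in 3 of 4, the exception being replicate 4. IRX3 kept a middle place in both orders.

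Libraries of 1 group differed in a shared way for several of the genes. Primed replicate 4 was the highest primed library for 6 of the 10 genes: OTX1, OTX2, SIX3, LHX5, FOXB1 and IRX3. It was the lowest for GBX2 and for LHX2. Between the CES3_12 libraries, primed replicate 4 and dome-shaped replicate 4, the log2 difference was -1.82 for OTX2, -3.58 for HESX1, 2.78 for GBX2 and 2.44 for FOXB1. The groups did not overlap for OTX2, HESX1, GBX2 and FOXB1, so any primed and dome-shaped pair would show these directions. Nothing further is read from this pair.

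Paralogues of the 10 genes were mostly low. Of 12 paralogues, 4 passed the filter, 1 was called higher and 0 lower by limma; at an unadjusted p under 0.05 the counts were 1 and 1. FOXB2, the sister gene of FOXB1, was at 2.52, 2.74, 1.49 and 2.95 RPKM in primed and 5.38, 6.16, 6.77 and 8.14 RPKM in dome-shaped libraries. It rose by a log2 difference of 1.16 (SE 0.19, limma adjusted p = 0.00617). GBX1, the sister of GBX2, reached at most 0.142 RPKM in a primed and 0.808 RPKM in a dome-shaped library, and EN1 at most 0.354 RPKM in any. IRX2 and IRX5, Iroquois genes like IRX3, differed by 0.25 and 0.34 and were not called (limma adjusted p = 0.715 and 0.322). GBX1, EN1, IRX2 and IRX5 were named after their values had been seen.

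Other genes of the axis were read from lists of forebrain factors, midbrain and isthmus genes, and hindbrain and spinal cord factors that do not contain the 10. Of their 63 genes, 60 had a row and 48 of these lay below the filter; of the 12 tested, limma called 3 higher and 0 lower in dome-shaped ESCs, and at an unadjusted p under 0.05 the counts were 5 and 0. Their median log2 difference was 0.51. The count of 3 was 0 without dome-shaped replicate 2 or replicate 3, 1 without primed replicate 2, 3 or 4 or dome-shaped replicate 1, 2 without primed replicate 1 and 5 without dome-shaped replicate 4. By number of genes at 1 RPKM or more, forebrain factors stayed few in both states, 2 or 3 of 22 in each primed and 1 of 22 in each dome-shaped library. Hindbrain and spinal cord factors reached that level for 4 to 8 of 24 in primed libraries, for 13, 16 and 14 in dome-shaped replicates 1 to 3, and for 5 in replicate 4.

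PHOX2A, a homeobox factor of hindbrain motor and noradrenergic neurons, was higher by 1.62 (SE 0.47, limma adjusted p = 0.0492), a call lost in 7 of the 8 fits that left out 1 library, all but that without dome-shaped replicate 4. SP8, a zinc finger factor of the forebrain that also acts at the isthmus, was higher by 1.72 (SE 0.42, limma adjusted p = 0.0276). The call of SP8 was lost in 6 of those 8 fits, all but those without primed replicate 1 or dome-shaped replicate 4.

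Several hindbrain genes that did not pass the filter or the test were high in dome-shaped replicates 1 to 3 and low in replicate 4; they are named after their values were seen. HOXB2, a HOX factor of the hindbrain segments, was at 21.5, 28.4 and 29.1 RPKM in dome-shaped replicates 1 to 3 and listed at 0 in replicate 4. HOXB1 was at 16.0, 14.0 and 25.4 RPKM in the former and also listed at 0 in the latter. MEIS2, a cofactor of HOX proteins, was at 30.3, 28.4 and 33.1 RPKM against 0.673 RPKM (log2 difference 2.62, limma adjusted p = 0.0793). By contrast GBX2 and FOXB1 in dome-shaped replicate 4, at 23.3 and 21.1 RPKM, stood well above all primed libraries. GBX2 and FOXB1 were therefore high in all 4 dome-shaped libraries, and HOXB1, HOXB2 and MEIS2 in 3. Other factors of the list, also named after their values were seen, did not follow this pattern. EGR2 was at 0.270, 1.98 and 0.368 RPKM in dome-shaped replicates 1 to 3 and 22.3 RPKM in replicate 4. CDX4 was at 6.70, 3.49 and 3.04 RPKM in dome-shaped replicates 1 to 3 and 6.41 RPKM in replicate 4.

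Among midbrain and isthmus genes 4 passed the filter and limma called 0 in either direction, with 1 higher and 0 lower at an unadjusted p under 0.05 and a median log2 difference of -0.42. FGF8, the isthmus signal and also a factor of the early embryo, was at 5.82 to 14.2 RPKM in primed and 14.4 to 53.8 RPKM in dome-shaped libraries. Its log2 difference was 1.07 (limma adjusted p = 0.103). The log2 difference was below 0 for the other three: FGF17 at -1.97 (limma adjusted p = 0.201), LMX1B at -0.49 (limma adjusted p = 0.376) and TAL2 at -0.35 (limma adjusted p = 0.492). PAX5 and PAX8, isthmus factors, lay below the filter. All 6 were named after their values had been seen.

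**Figure D4:**
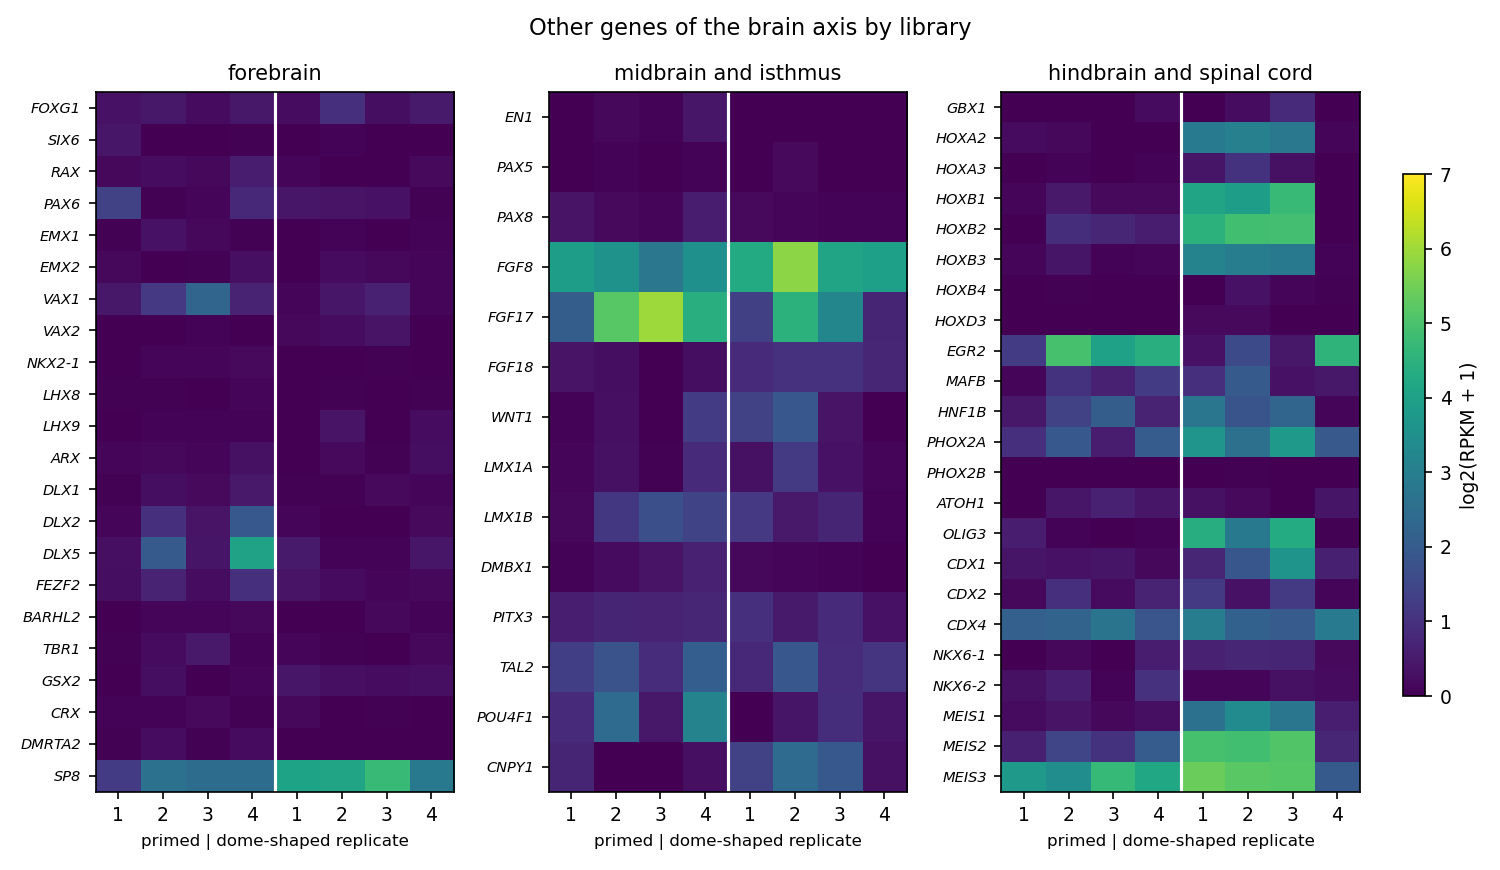
Level of forebrain, midbrain and isthmus, and hindbrain and spinal cord genes of the lists in each library as colour, log2(RPKM + 1) from 0 to 7, with primed replicates left and dome-shaped replicates right of the white line. Most forebrain rows are dark, SP8 and, in primed replicate 4, DLX5 being the brightest, and HOXB1, HOXB2 and MEIS2 are bright in dome-shaped replicates 1 to 3 but not in replicate 4.

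The head organizer is the tissue that keeps the anterior neural plate anterior. Of 14 of its genes tested, limma called 5 lower, 0 higher and 9 in neither direction, with a median log2 difference of -1.25, and 0 higher and 6 lower at an unadjusted p under 0.05. SHISA2, which holds back FGF and WNT receptors, stood at 182.9, 123.7, 134.0 and 139.7 RPKM in primed and 6.35, 17.4, 6.82 and 30.8 RPKM in dome-shaped libraries. It fell by a log2 difference of -3.42 (SE 0.43, limma adjusted p = 0.00231). The endoderm and midline factor FOXA2 fell by -2.55 (limma adjusted p = 0.00900), and CHRD, the BMP antagonist chordin, by -1.89 (limma adjusted p = 0.0160). SFRP1, a secreted WNT antagonist, fell by -1.24 (limma adjusted p = 0.0197), and TCF7L1, a repressor of WNT targets named here to complete the count, by -0.74 (limma adjusted p = 0.0323). Leaving out each library gave counts of 3 to 7. Without primed replicate 4, dome-shaped replicate 2 or dome-shaped replicate 3 the count was 3 (SHISA2, FOXA2 and CHRD). Without primed replicate 1 it was 7, LHX1 and HHEX being called lower as well.

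Genes on the list of caudalizing signals and readouts were called in both directions. The list also holds CYP26A1, which breaks down such a signal. Of 12 tested, limma called 4 higher and 2 lower, with a median log2 difference of 0.85. At an unadjusted p under 0.05 the counts were 6 higher and 2 lower. AXIN2, a feedback target of WNT signalling, stood at 5.32, 11.4, 9.15 and 9.29 RPKM in primed and 48.0, 53.7, 63.6 and 28.3 RPKM in dome-shaped libraries. It rose by a log2 difference of 2.32 (SE 0.27, limma adjusted p = 0.00203). SP5, a further WNT target, rose by 3.05 (SE 0.46, limma adjusted p = 0.00490). WNT5A and NKX1-2 were the other two called higher, named to complete the count. The count was 2 (AXIN2 and SP5) without primed replicate 2 or 3 or dome-shaped replicate 2 or 3. CYP26A1, the enzyme that degrades retinoic acid and an early anterior neural marker, stood at 66.3, 94.6, 48.1 and 103.5 RPKM in primed and 6.13, 13.8, 9.85 and 36.8 RPKM in dome-shaped libraries. It fell by -2.40 (SE 0.46, limma adjusted p = 0.0118). RARG, a retinoic acid receptor, fell by -0.96 (SE 0.20, limma adjusted p = 0.0168), a call lost without primed replicate 2 or dome-shaped replicate 2.

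**Figure D5:**
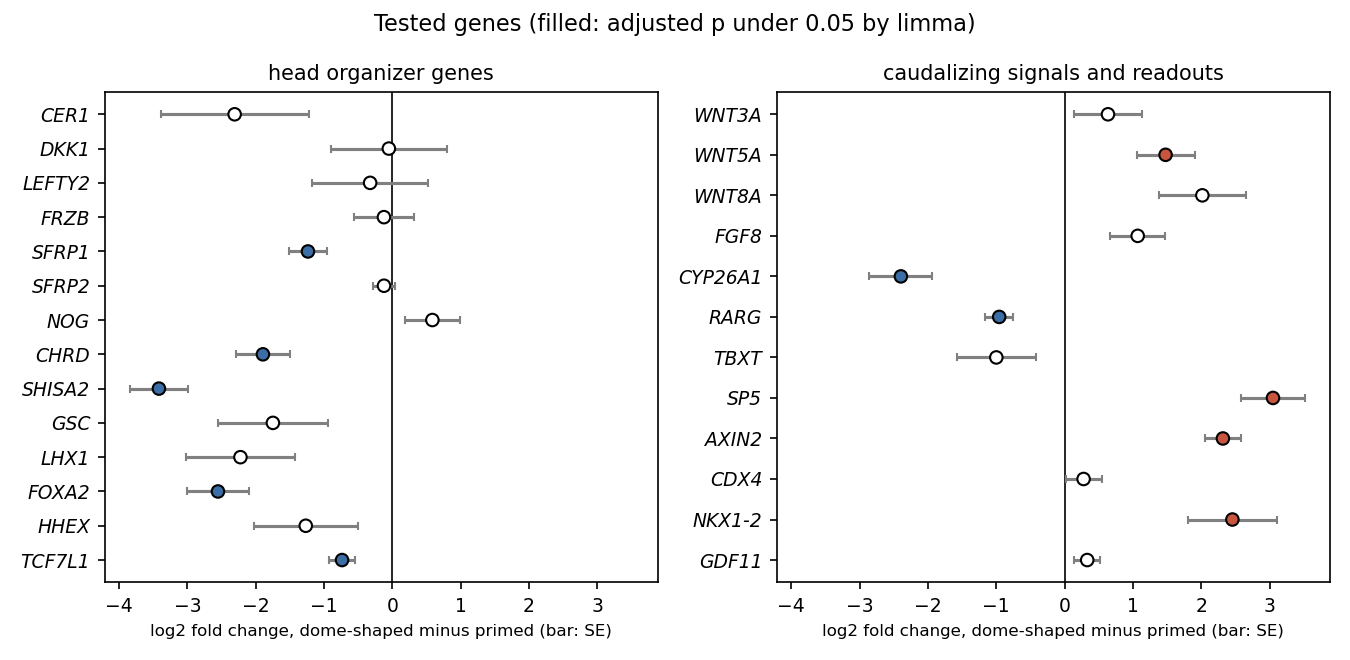
Log2 difference in RPKM + 1, dome-shaped minus primed, with its standard error, for the tested head organizer genes (left) and caudalizing signals and readouts (right); filled points passed limma's adjusted p of 0.05. The 5 filled head organizer genes all lie left of 0, and the filled genes of the caudalizing list lie on both sides.

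The genes whose profile over the 8 libraries was most like that of OTX2, HESX1, GBX2 or FOXB1 were ranked by the root mean square difference of centred log2(RPKM + 1) among 9594 tested genes with a symbol. For OTX2 they were EPHA1 (0.353), an ephrin receptor, KCNK1 (0.361), a potassium channel, and SEZ6 (0.363). For HESX1 they were ST14 (0.350), LAD1 (0.427) and RAB25 (0.432), genes of epithelial cells. For GBX2 they were SP5 (0.592), WLS (0.621) and AXIN2 (0.628), so that 2 of its 3 nearest profiles were genes of the caudalizing list. For FOXB1 they were KIAA0569 (0.427), an older symbol of ZEB2, A2M (0.509) and the WNT receptor FZD10 (0.573). WLS carries WNT proteins to the cell surface. The ranking used the same 8 libraries on which the 10 genes were chosen.

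The genes next to the 10 on the macaque RefSeq assembly T2T-MFA8v1.1 were looked up by name after the values had been seen. Of the neighbours with a row, 10 were not called, 2 were called lower, 1 was called higher and 2 lay below the filter; 5 had no row here. AGAP1, beside GBX2, was lower by a log2 difference of -0.52 (limma adjusted p = 0.00620) where GBX2 was higher. The neighbours of OTX2 and FOXB1 that had a row were not called.

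The 19 general neural genes with a row summed to 581 to 777 RPKM in primed and 634.5 to 772.5 RPKM in dome-shaped libraries. Their levels ranged widely. PAX6 was at most 1.55 RPKM in any library and 0.351 RPKM in any dome-shaped library. HES5 and NEUROG2 stayed below 1 RPKM in all. NES was at 201 to 421.5 RPKM in primed and 220 to 324 RPKM in dome-shaped libraries. ZIC2 was at 117 to 187 RPKM in primed and 104 to 151 RPKM in dome-shaped libraries. PAX6, HES5, NEUROG2, NES and ZIC2 were named after their values had been seen. Of 12 general neural genes tested, limma called 3 higher and 0 lower, with a median log2 difference of 0.76. At an unadjusted p under 0.05 the counts were 6 higher and 1 lower. Without dome-shaped replicate 4 limma called 5 higher and 1 lower. FABP7, a fatty acid binding protein of radial glia, rose by a log2 difference of 1.499 (limma adjusted p = 0.00189), and NCAM1, a neural adhesion molecule, by 1.30 (limma adjusted p = 0.00306).

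Pluripotency markers were present in all libraries. SOX2 was at 172 to 273 RPKM in primed and 219 to 322 RPKM in dome-shaped libraries (log2 difference 0.27, limma adjusted p = 0.249). NANOG was at 116 to 163 RPKM in primed and 53.3 to 113 RPKM in dome-shaped libraries (log2 difference -0.75, limma adjusted p = 0.0836), and it was called lower without dome-shaped replicate 4 (-0.92). Of 9 pluripotency genes tested, 6 were called lower and 0 higher by limma, the direction of OTX2 and HESX1.

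Some markers of other cell types moved with the states, and their part in the levels of the 10 genes was not tested. Of 5 endoderm genes tested 1 was called lower (FOXA2), and their sum was 51.5 to 341 RPKM in primed and 5.79 to 156 RPKM in dome-shaped libraries. Of 4 trophoblast genes tested 2 were called lower, and the 6 with a row summed to 27.6 to 61.5 and 10.4 to 14.1 RPKM. Of 4 neural crest genes tested 1 was called higher (TWIST1) and 1 lower (FOXD3). The 8 with a row summed to 36.4 to 89.7 RPKM in primed and 44.6 to 96.8 RPKM in dome-shaped libraries. Of 3 streak and mesoderm genes limma called 0, with 0 at an unadjusted p under 0.05, and of 4 fibroblast genes also 0, with 0 higher and 1 lower at an unadjusted p under 0.05. The lowest endoderm sum in either group was that of dome-shaped replicate 4, where hindbrain factors were also lowest among dome-shaped libraries.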

How the data were processed

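Polyadenylated RNA was reverse transcribed from random primers and sequenced with no strand step recorded, per the labels' protocols, so antisense and overlapping genes cannot be told apart. The authors deposited 1 table of RPKM values for the 8 libraries with a query length and protein matches per row. Tools in the submitters' processing notes are TopHat2 2.0.9, Bowtie2 2.0.6 and HTSeq 0.6.1, and the genome build is not given in the sources used here. Of 33138 rows, 17 were blank. The 10 genes and all lists were chosen with earlier results of these data known. The other rows were named from the table (4302), RefSeq accessions (7354), symbols quoted in a match (2790) or protein names (57), so that 61.5% of tested genes had a symbol. Close copies of a gene may share its reads. Of the list genes, FEZF1, LEFTY1, PAX2, POU5F1, PTF1A, RARB, SOX1 and WNT3 were paired with no row. The columns of dome-shaped replicates 1, 2 and 3 lacked the last characters of their titles and were matched to the only title left; 0 columns belonged to other samples.

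RPKM multiplied by length gave depth: 72.3% to 74.2% of values under 50 reads were whole within 0.01, and those of the 10 genes within 0.19. The 15597 genes that reached 1 RPKM in 4 or more libraries were compared on log2(RPKM + 1), which understates changes of low genes, with limma 3.58.1 in R 4.3.3 (mean trend, two-sided, no covariates, Benjamini-Hochberg over all genes tested, threshold 0.05), a script that was tested on simulated data. Genes were named by a rule: the 10 always, up to 4 called genes per axis list by smallest adjusted p, the 3 most alike profiles for OTX2, HESX1, GBX2 and FOXB1, and POU5F1, NANOG and SOX2; up to 3 markers per cell type were also allowed but are given as sums, and genes outside the rule, among them DLX5, EGR2 and FGF18, were named after their values had been seen. Some list genes that the rule takes are counted but not reported here by name. Alternatives were pseudocounts of 0.1 and 0.5, no filter, a filter on a mean of 5 RPKM, median-of-ratios and quantile scaling, no mean trend, a replicate block, sums over all fitting rows, and leaving out each library.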

Additional observations from a re-analysis of the deposited data

Results flagged for a closer look

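Within each group of 4 libraries the most extreme value was checked against Dixon's limit for 4 values, for 27 genes, 54 groups in all, of which 5 exceeded it; chance flags about 1 in 20. OTX1 in dome-shaped replicate 4 was 0.195 RPKM, above 0.0531 to 0.0652 RPKM in the other dome-shaped libraries, 3 reads against 1. EN2 in dome-shaped replicate 3 was 0.0563 RPKM, a single read, where the others were listed at 0. SP8 in primed replicate 1 was 1.39 RPKM, below 4.55 to 5.15 RPKM in the other primed libraries. NCAM1 in primed replicate 2 was 3.87 RPKM, below 5.39 to 5.51 RPKM. SFRP1 in primed replicate 2 was 363 RPKM, below 405.8 to 407.7 RPKM.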

How the results depend on the processing

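The number after CES in the titles was used as a replicate block in place of no covariate: 303 genes were then called higher and 593 lower, against 995 and 1242, and 1 gene of the brain region lists higher, against 3. Between same-numbered primed and dome-shaped libraries, deviations from the group means correlated at -0.0975 to 0.125. The numbers thus do not show pairing, but what they stand for cannot be told from these values. Leaving out each library gave 381 to 1289 genes higher and 655 to 1441 lower, and 0 to 5 brain region genes higher and 0 to 1 lower, the 1 being EGR2 without dome-shaped replicate 4. The other alternatives kept these counts within 1.5 times. The OTX2 to GBX2 log2 ratio difference stayed between -5.77 and -5.15 over 5 alternatives and between -6.14 and -5.02 when leaving out a library. A pseudocount of 0.1 gave -2.98 for OTX1, -4.53 for HESX1, -3.77 for SIX3, -0.96 for LHX2, -3.22 for LHX5, -1.06 for EN2 and 4.26 for FOXB1. SP8 and PHOX2A lost their calls with no filter and with the block (adjusted p of up to 0.0588 and 0.0960), PHOX2A also with pseudocounts of 0.1 and 0.5 and with no variance trend (adjusted p = 0.0561, 0.0510 and 0.0598); with no filter FGF18 was called higher and the caudalizing genes called higher were 2. SFRP1 lost its call without primed replicate 4 or dome-shaped replicate 2 or 3. AXIN2, SP5, SHISA2, FOXA2, CHRD, CYP26A1 and NCAM1 kept theirs in all alternatives run, FOXB2 and FABP7 in all but a mean of 5 RPKM, which they did not reach. OTX1, SIX3, LHX2 and EN2 rest on at most 52 reads in any library, so their sizes are set by few reads.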
